A study of Vulpes vulpes with 48 samples.

Results

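A group of 4 dog gene identifiers, ENSCAFG00000007746, ENSCAFG00000015743, ENSCAFG00000015141 and ENSCAFG00000013227, is described here in the brains of tame and aggressive silver foxes (Vulpes vulpes). They are 4 of the 13202 identifiers in the deposited tables and were chosen by their measured line difference in basal forebrain. Among genes lower in tame than in aggressive forebrain, they had the 4 smallest p-values. By size of fold change among those genes they ranked 26, 80, 117 and 2, in the order named above. All 4 are listed in both the forebrain table (13089 genes) and the cortex table (12808 genes), and all 4 passed the filter on low counts in each. RNA was sequenced from the right prefrontal cortex and the right basal forebrain of male foxes aged 1.5 years, from a line selected for tame behaviour or a line selected for aggressive behaviour. The labels name no treatment in any group. Analysed were 12 tame and 12 aggressive cortex libraries, and 10 tame and 12 aggressive forebrain libraries. The labels list 2 more tame forebrain libraries, ID488 and ID490, that were not analysed here. The labels do not say whether the cortex and forebrain libraries came from the same foxes, and p-values measure the spread between these libraries.

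The silver fox lines belong to a long-running breeding experiment in which foxes were selected over generations for their response to people. The basal forebrain holds cholinergic nuclei that project to the cortex and lies beside the ventral striatum; these structures are known for roles in attention, arousal and reward. The prefrontal cortex is known for its part in the control of social and emotional behaviour. Of the 13202 dog identifiers, 0 were found in the RefSeq genes of the fox assembly VulVul3. The 4 genes are therefore given without symbol, function, position or sequence, and the dissected regions could not be checked against marker genes.

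Cortex libraries held between 6.23 M and 17.2 M counts, and forebrain libraries between 6.25 M and 13.6 M, where M stands for 1000000. In the cortex, 5 libraries of the tame line (ID191, ID190, ID187, ID186 and ID182) stood apart on the first principal component, which held 78.1% of the variance. They scored between 50.9 and 159, and the other 19 cortex libraries scored between -37.7 and -14.1. In the forebrain, tame library ID483 had the highest score on the first component (70.7). Levels are given in CPM, the counts of a gene per 1000000 counts of the library, with TMM scaling (trimmed mean of M-values) over the 46 libraries together. They are not divided by gene length, so they compare libraries and not genes. The counts of the 4 genes held 0 fractional values, and 0 other genes shared all their counts with any of them.

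The forebrain values below chose the 4 genes and are a description. The 4 genes had the 4 smallest p-values among genes lower in tame forebrain, and ENSCAFG00000007746 averaged 8.15 ± 1.65 CPM in the tame group (SD, n = 10), against 12.4 ± 1.64 CPM in the aggressive group (SD, n = 12). Tame libraries ranged from 6.18 to 11.5 CPM with a median of 8.38, and aggressive libraries from 8.44 to 14.7 CPM with a median of 12.4. All 10 tame libraries lay below the aggressive median, and 5 lay below the lowest aggressive library. The groups overlapped: tame library ID482 at 11.5 CPM was the highest of its line, and aggressive library ID533 at 8.44 CPM the lowest of its own. The log2 fold change, tame over aggressive, was -0.61 (SE 0.11). In bulk tissue, fewer cells of a type that carries a transcript and less RNA per cell cannot be told apart.

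ENSCAFG00000015743 ranged from 60.4 to 84.8 CPM in tame forebrain (median 68.3, n = 10) and from 72.0 to 112 CPM in aggressive forebrain (median 92.9, n = 12). Of the 10 tame libraries, 7 lay below the lowest aggressive library, ID595, and 10 of 12 aggressive libraries lay above the highest tame library, ID482. On the log2 scale the fold change was -0.44 (SE 0.075). The spread between libraries was close in the lines, with coefficients of variation (SD as a percentage of the mean) of 11.2% in tame and 12.9% in aggressive forebrain.

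ENSCAFG00000015141 ranged from 70.4 to 106 CPM in tame forebrain (median 90.4, n = 10) and from 102 to 136 CPM in aggressive forebrain (median 115, n = 12). The overlap was small: 9 of 10 tame libraries were below the lowest aggressive library, ID536, and 11 of 12 aggressive libraries were above the highest tame library, ID489. This gave a log2 fold change of -0.39 (SE 0.070). The coefficient of variation was 14.4% in tame and 7.39% in aggressive forebrain.

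ENSCAFG00000013227 had the fewest counts of the 4, with 2 to 27 counts per library in tame and 13 to 70 in aggressive forebrain. Its level ranged from 0.184 to 2.49 CPM in tame (median 0.821, n = 10) and from 1.21 to 5.81 CPM in aggressive forebrain (median 3.12, n = 12). Of the tame libraries, 6 lay below the lowest aggressive library, ID534, and 8 of 12 aggressive libraries lay above the highest tame library, ID487. Its log2 fold change was -1.76 (SE 0.37), larger in size than for the other 3 genes and with the widest interval, from -2.53 to -0.99. Tame levels were also the most uneven: the highest was 13.5 times the lowest, and 5 of the tame libraries had no more than 6 counts.

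In this contrast 3 of the 4 genes had an adjusted p under 0.05. These 3 were all the genes called lower in tame forebrain (0.0232% of 12915 tested). The count follows from the choice, because the contrast chose the genes. ENSCAFG00000013227 was the one of the 4 that did not pass. The first gene outside the 4, by p-value among genes lower in tame forebrain, was ENSCAFG00000018911, with a log2 fold change of -0.34 (SE 0.073). Without tame library ID483 the 4 log2 fold changes were -0.62, -0.44, -0.41 and -1.96, in the order ENSCAFG00000007746, ENSCAFG00000015743, ENSCAFG00000015141 and ENSCAFG00000013227. That library was not the extreme tame value for any of the 4 genes: it held 8.61, 69.5, 98.2 and 2.003 CPM in the same order.

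**Figure D1:**
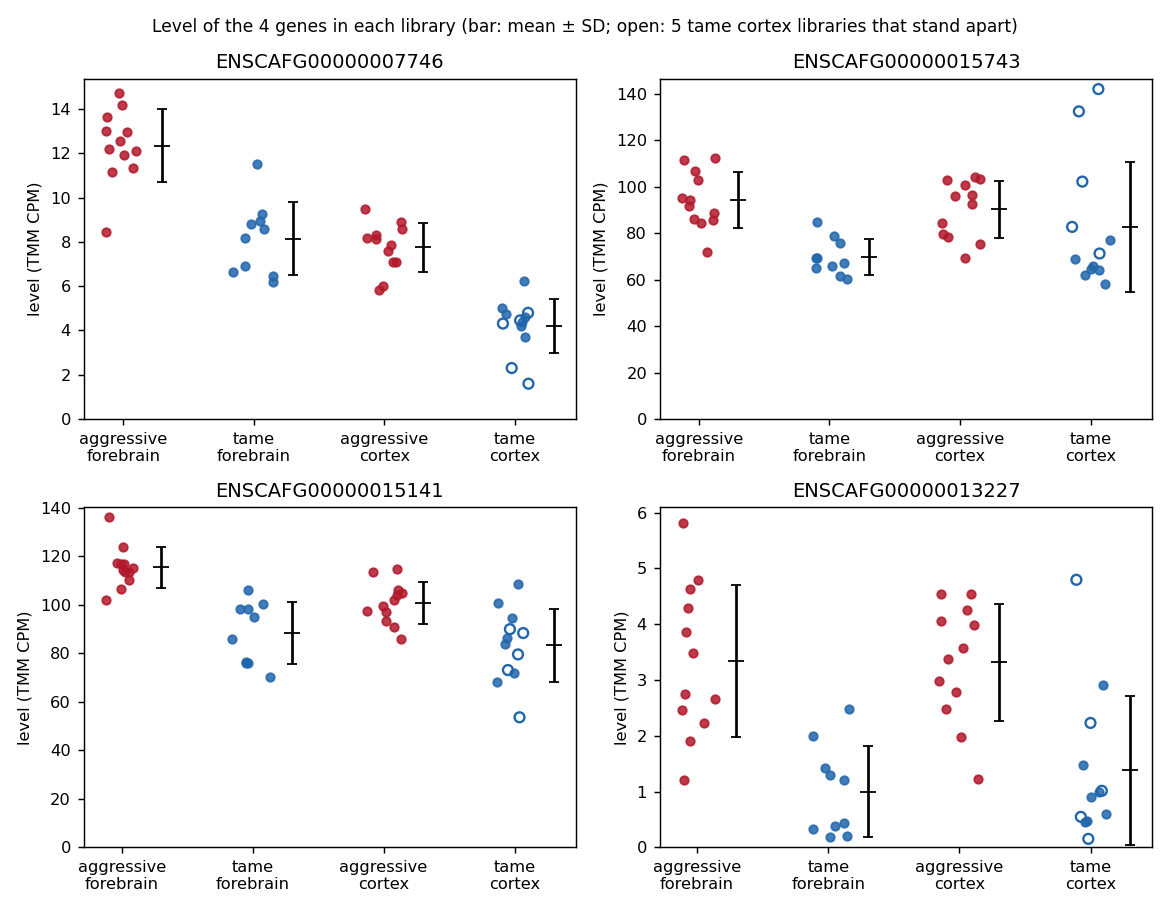
TMM CPM of each gene (y axis, linear from 0) in every library of the 4 line and tissue groups (x axis); each point is 1 library, bars are mean ± SD, and open points are the 5 tame cortex libraries that stand apart. Tame points sit low in the forebrain for all 4 genes, and in the cortex ENSCAFG00000007746 keeps the lines almost separate while the open points of ENSCAFG00000015743 reach 142 CPM.

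Whether the genes are also lower in the prefrontal cortex of tame foxes was tested on libraries that did not enter the choice. The labels do not say whether these came from the same foxes as the forebrain libraries. If they did, the cortex values are not independent of the choice. All 4 had a log2 fold change below 0 in the cortex (median -0.57, against 0.02 over the 12705 genes tested, of which 48.6% were below 0). By edgeR's quasi-likelihood test with Benjamini-Hochberg adjustment over all genes, 1 of the 4 passed an adjusted p of 0.05. Over all tested genes, 0.0945% were called lower in tame cortex. The gene that passed was ENSCAFG00000007746, and the other 3 had smaller or more uneven differences.

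ENSCAFG00000007746 fell in tame cortex to 4.19 ± 1.22 CPM, from 7.76 ± 1.10 CPM in aggressive cortex (SD, n = 12 each). Tame libraries ranged from 1.59 to 6.24 CPM (median 4.41) and aggressive libraries from 5.85 to 9.51 CPM (median 7.997). The lines nearly separated: 11 of 12 tame libraries lay below the lowest aggressive library, and tame library ID185 was the exception. This was a log2 fold change of -0.87 (SE 0.15, 95% interval -1.18 to -0.57, edgeR adjusted p = 0.00793). Counts ran from 15 to 81 in tame and from 51 to 136 in aggressive cortex. The lowest tame levels were in ID187 (1.59 CPM) and ID191 (2.30 CPM), both among the libraries that stand apart. Without those 5 libraries, which left 7 tame and 12 aggressive, the difference was -0.72 on the log2 scale (SE 0.11, edgeR adjusted p = 0.00694).

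ENSCAFG00000015743 had similar means in the lines, 82.6 ± 28.2 CPM in tame and 90.3 ± 12.3 CPM in aggressive cortex (SD, n = 12 each). Tame over aggressive, the log2 fold change was -0.12 (SE 0.14, 95% interval -0.41 to 0.17, edgeR adjusted p = 0.481). The tame libraries were not alike, however. In the 5 that stand apart the gene ranged from 71.3 to 142 CPM (median 102), and in the other 7 from 58.04 to 76.9 CPM (median 64.7). Aggressive libraries ranged from 69.3 to 104 CPM (median 94.3), so 6 of those 7 tame libraries lay below every aggressive library, 0 of the 5 did, and 2 of the 5 lay above every aggressive library. These 2 were ID187 and ID191. Their TMM factors within the cortex were 0.748 and 0.768, and those of the other cortex libraries ranged from 0.971 to 1.08. The levels themselves use factors over the 46 libraries together, not these cortex factors. Whether the scaling bears on the high levels in ID187 and ID191 was not tested.

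Without the 5 tame libraries the cortex log2 fold change of ENSCAFG00000015743 was -0.45 (SE 0.081, 95% interval -0.62 to -0.29, edgeR adjusted p = 0.0139). In that fit 3 of the 4 genes passed, where 0.125% of the genes tested were called lower in tame cortex. With all 24 libraries, limma-voom with sample quality weights gave the gene -0.41 (adjusted p = 0.00244). With a surrogate variable in the model, which correlated with the first component at an absolute r of 0.992, it was -0.42 (SE 0.075, edgeR adjusted p = 0.00660). It did not pass in the libraries matched to the forebrain by their last digits, with the 5 (-0.07, edgeR adjusted p = 0.721) or without them (-0.48, edgeR adjusted p = 0.0617).

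ENSCAFG00000015141 averaged 83.3 ± 15.1 CPM in tame cortex, against 100.8 ± 8.56 CPM in aggressive cortex (SD, n = 12 each). Tame libraries ranged from 53.6 to 109 CPM (median 85.2) and aggressive libraries from 86.1 to 115 CPM (median 100.7). Of the 12 tame libraries, 10 lay below the aggressive median and 6 below the lowest aggressive library. The log2 fold change was -0.27 (SE 0.091, 95% interval -0.46 to -0.08), and it did not pass the adjustment over all genes (unadjusted p = 0.00641, edgeR adjusted p = 0.0900). The difference was smaller, at -0.20 (SE 0.077, edgeR adjusted p = 0.502), without the 5 libraries that stand apart.

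ENSCAFG00000013227 averaged 1.38 ± 1.34 CPM in tame cortex, against 3.32 ± 1.05 CPM in aggressive cortex (SD, n = 12 each). Tame libraries ranged from 0.153 to 4.80 CPM (median 0.948, 1 to 61 counts) and aggressive libraries from 1.23 to 4.55 CPM (median 3.48, 11 to 70 counts). Of the 12 tame libraries, 8 lay below the lowest aggressive library, while tame library ID190 lay above all 12 aggressive libraries. Its log2 fold change was -1.21 (SE 0.36, 95% interval -1.94 to -0.48, edgeR adjusted p = 0.0900).

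The call on ENSCAFG00000013227 moved with the test and with the libraries. With all 24 libraries it passed by DESeq2 (-1.24, adjusted p = 0.0324) and by limma-voom (-1.33, adjusted p = 0.0103). Without ID190, at 4.80 CPM, the difference was -1.58 on the log2 scale (edgeR adjusted p = 0.0313). Without the 5 libraries that stand apart, which include ID190, it was -1.50 (SE 0.32, edgeR adjusted p = 0.0426). The next highest tame cortex library was ID188, at 2.91 CPM. Libraries ID188 and ID190 share the last digits of their identifiers with the forebrain libraries ID488 and ID490, which were not analysed here. Restricting the cortex to libraries whose last digits also occur in the analysed forebrain libraries of their line, a setting chosen after seeing the data (9 tame and 11 aggressive libraries), gave a log2 fold change of -1.85 (edgeR adjusted p = 0.0123).

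**Figure D2:**
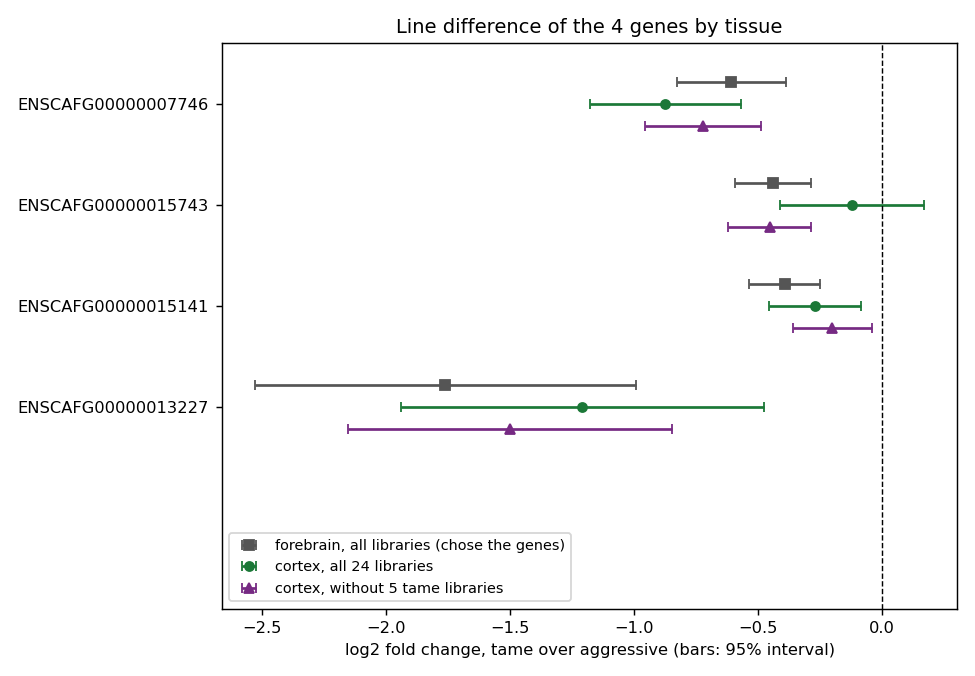
Log2 fold change of tame over aggressive foxes (x axis) for each gene (y axis), with 95% intervals, in forebrain, in all 24 cortex libraries, and in the cortex without 5 tame libraries. All point estimates are below 0, and ENSCAFG00000015743 moves from -0.12 to -0.45 in the cortex when the 5 libraries are left out.

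**Figure D3:**
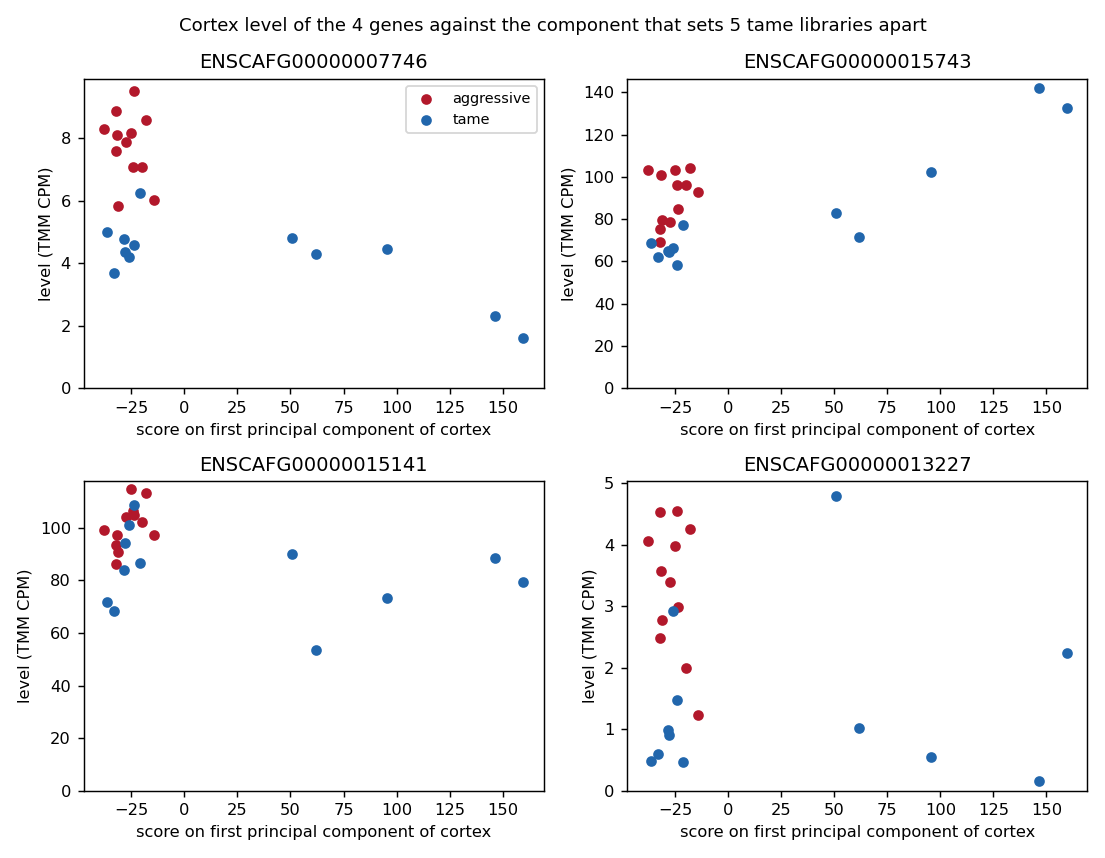
TMM CPM of each gene (y axis) against the score on the first principal component (x axis) in 24 cortex libraries, with tame and aggressive libraries in separate colours. The 5 tame libraries at 50.9 and above include the highest level of ENSCAFG00000015743 (142 CPM) and the lowest of ENSCAFG00000007746 (1.59 CPM).

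Leaving out each of the 24 cortex libraries in turn showed how far each call depends on one library. ENSCAFG00000007746 passed in 24 of 24 fits, with adjusted p-values from 0.00564 to 0.0215. ENSCAFG00000015743 passed in 0 fits (0.247 to 0.630), and so did ENSCAFG00000015141 (0.0637 to 0.188). ENSCAFG00000013227 passed in 1 fit, the one without ID190 (0.0313 to 0.172); 2 of the 4 genes passed in that fit, where 0.0551% of all genes were called lower in tame cortex.

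The count of genes past the threshold in the cortex also moved with the test. DESeq2 called 2 of the 4 (0.763% of all genes were called lower), limma-voom with sample quality weights called 3 (0.512%), and the fit with a surrogate variable called 2 (0.252%). The libraries matched to the forebrain by their last digits gave 2 (0.0628%), and also 2 (0.0469%) when the 5 libraries that stand apart were left out as well. ENSCAFG00000007746 was called in every one of these fits. By two-sided permutation of the line labels within the cortex, gene by gene and not adjusted over genes, 3 of the 4 were lower in tame with a p under 0.05; over all genes tested the same was so for 26.7% (10000 shuffles).

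**Figure D4:**
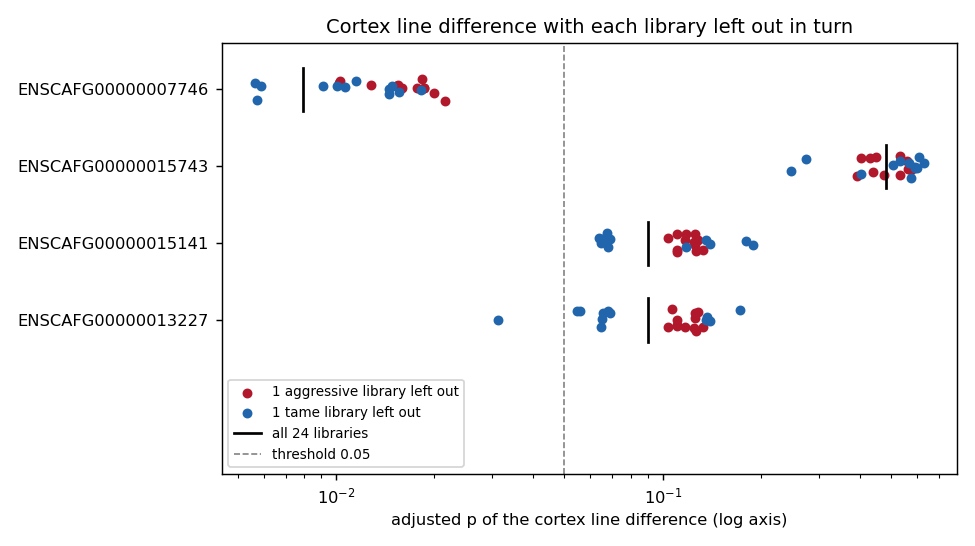
Adjusted p of the cortex line difference (x axis, log scale) for each gene (y axis) when 1 library is left out; points are coloured by the line of that library, black bars mark the fit on all 24 libraries, and the dashed line marks 0.05. Points of ENSCAFG00000007746 all lie left of the line, and for ENSCAFG00000013227 a single point does.

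The size of the line difference in each tissue is given side by side, without a test, since the forebrain value chose the genes. In a joint fit of the 46 libraries, the forebrain minus cortex difference between the log2 fold changes was 0.27 (SE 0.18) for ENSCAFG00000007746, -0.31 (SE 0.16) for ENSCAFG00000015743, -0.11 (SE 0.12) for ENSCAFG00000015141 and -0.54 (SE 0.52) for ENSCAFG00000013227. The order of the tissues was not stable for ENSCAFG00000015743: without the 5 libraries its cortex difference (-0.45) was level with that in forebrain (-0.44). For ENSCAFG00000013227 the cortex difference (-1.85) was past its forebrain value (-1.76) only in the matched libraries. That setting was chosen after seeing the data and leaves out ID190 and ID188, the 2 highest tame cortex libraries for this gene. Whether a gene's line difference is particular to one tissue was not tested.

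The level of each gene was next compared between forebrain and cortex, averaged over the lines with equal weight, which keeps the comparison nearly independent of the choice of genes. Of the 4 genes, 2 were higher in forebrain by edgeR's quasi-likelihood test, where 33.8% of 12695 genes were called higher and 30.2% lower, so a call in this comparison is common among all genes. Forebrain and cortex were counted in separate tables, and a difference between tables cannot be told apart from a difference between tissues.

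ENSCAFG00000007746 rose in forebrain, with a log2 fold change over cortex of 0.81 (SE 0.092, 95% interval 0.62 to 0.99, edgeR adjusted p = 1.78e-10). In the aggressive line, 11 of 12 forebrain libraries lay above the highest cortex library, and in the tame line 9 of 10 did. Its mean levels fell in the order aggressive forebrain, tame forebrain, aggressive cortex and tame cortex. The neighbours tame forebrain (8.15 CPM) and aggressive cortex (7.76 CPM) differed by less than the SD between libraries.

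ENSCAFG00000015141 was also higher in forebrain, by a log2 fold change of 0.14 (SE 0.058, 95% interval 0.02 to 0.26, edgeR adjusted p = 0.0319). The median over all genes tested was 0.04. With limma-voom it was 0.060 (adjusted p = 0.289). The adjusted p was 0.0516 with size factors in place of TMM, and it was over 0.05 without tame library ID484 (0.0522), tame library ID489 (0.0598) or aggressive library ID534 (0.0506), all from forebrain. Levels fell in the order aggressive forebrain (115 ± 8.54 CPM), aggressive cortex, tame forebrain (88.2 ± 12.7 CPM) and tame cortex. Aggressive forebrain and aggressive cortex differed by more than the SD of either group, and the other neighbours did not.

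The remaining 2 genes did not pass between the tissues by edgeR. ENSCAFG00000015743 had a log2 fold change of -0.09 in forebrain over cortex (SE 0.082, 95% interval -0.26 to 0.08, edgeR adjusted p = 0.347). Its sign changed with limma-voom (0.071, adjusted p = 0.213) and without the 5 libraries and ID483 (0.12, edgeR adjusted p = 0.0654). Its mean levels fell in the order aggressive forebrain (94.4 ± 12.2 CPM), aggressive cortex, tame cortex and tame forebrain (69.8 ± 7.80 CPM), and no pair of neighbours differed by more than the larger SD. ENSCAFG00000013227 had a log2 fold change of -0.26 (SE 0.26, 95% interval -0.79 to 0.27, edgeR adjusted p = 0.390), and with limma-voom it was lower in forebrain (-0.54, adjusted p = 0.0440). Aggressive forebrain (3.34 ± 1.36 CPM) and aggressive cortex (3.32 CPM) stood almost level, above tame cortex and tame forebrain (0.997 ± 0.814 CPM). The step from aggressive to tame cortex was the one step larger than the SD between libraries.

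Spread between libraries set the 4 genes apart from one another. The coefficient of variation of ENSCAFG00000013227 was 97.0% in tame cortex, 81.7% in tame forebrain, 31.7% in aggressive cortex and 40.8% in aggressive forebrain. That of ENSCAFG00000015743 was 34.1% in tame cortex, where the 5 libraries stand apart, and between 11.2% and 13.6% in the other groups. The biological coefficient of variation estimated by edgeR within groups was 56.8% for ENSCAFG00000013227, above that of 93.2% of the 500 genes nearest in abundance (median 29.7%). For ENSCAFG00000007746 it was 16.5%, above that of 18.8% of such genes (median 24.02%), and for ENSCAFG00000015141 it was 13.9%, above 18.0%. ENSCAFG00000015743 was in the middle of its neighbours, at 19.5% against a median of 21.01%. These ranks are a description. The estimate includes the forebrain libraries that chose the genes, and a choice by small p-value favours a low spread.

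Levels of the 4 genes did not move together detectably within a line and tissue. Over 18 correlations, 6 pairs in each of aggressive cortex, aggressive forebrain and tame forebrain, 0 passed an adjusted permutation p of 0.05, 2 had an unadjusted p under 0.05, and 11 were positive. Tame cortex was left out because its libraries fall into separate clusters. The pair ENSCAFG00000015743 and ENSCAFG00000015141 correlated positively in aggressive cortex (Pearson r = 0.646, permutation p = 0.0245, adjusted p = 0.220; Spearman rho = 0.615, permutation p = 0.0376, adjusted p = 0.338; n = 12). Without the 2 libraries farthest from the median, r was 0.443, and in aggressive and tame forebrain r was 0.430 and 0.418. ENSCAFG00000015141 and ENSCAFG00000013227 correlated negatively in aggressive forebrain (r = -0.667, permutation p = 0.0173, adjusted p = 0.220; rho = -0.622, permutation p = 0.0359, adjusted p = 0.338; n = 12), and r was -0.401 without the 2 farthest libraries. In aggressive cortex the same pair had r = 0.219.

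For each gene, the other gene with the highest Pearson r within groups, averaged over the 4 groups, was sought among 12664 genes. These values are the largest of many and come from the same libraries, so they are a description. The tame cortex r spans the 5 libraries that stand apart. ENSCAFG00000030152 was most like ENSCAFG00000015743, with a mean r of 0.810 (0.911 in tame cortex, 0.664 in aggressive cortex, 0.927 in tame forebrain and 0.740 in aggressive forebrain). Its own line differences had the opposite sign, with log2 fold changes of 0.19 in cortex and 0.07 in forebrain. ENSCAFG00000008703 was most like ENSCAFG00000007746, with a mean r of 0.678 (from 0.440 in aggressive forebrain to 0.790 in aggressive cortex) and log2 fold changes of -0.26 in cortex and -0.23 in forebrain. For ENSCAFG00000015141 the most alike gene was ENSCAFG00000000586 (mean r = 0.653), and for ENSCAFG00000013227 it was ENSCAFG00000007416 (mean r = 0.502). These last 2 matches were replaced by other genes when tame cortex was left out.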

How the data were processed

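The authors deposited estimated counts per dog gene, 1 table per tissue; per the submitters' processing notes, CASAVA 1.8.2, FastQC, Trimmomatic, BWA, bedtools, edgeR and the build canFam3 were used, and how reads were assigned to genes is not given in the sources used here. Columns were matched to samples by the identifier in the titles. Counts were rounded to whole numbers. Genes were kept with filterByExpr (minimum count 10), scaled by TMM and tested with the quasi-likelihood F-test of edgeR (robust dispersion, edgeR 4.0.16, R 4.3.3), with Benjamini-Hochberg adjustment over all genes. Standard errors are the log2 fold change divided by the square root of F. The tissue comparison used a joint fit of 46 libraries and the 12695 genes of both tables. Correlations used log2 TMM CPM (prior count 2) and 100000 shuffles, two-sided. Alternatives used DESeq2 1.42.0, limma 3.58.1 and sva 3.50.0. On simulated counts, the cortex line comparison (12659 genes) recovered 38.0% of the genes given a 1.5-fold change and 78.0% of those given a 2-fold change, and the tissue comparison (12695 genes) recovered 74.0% and 91.0%. The simulation held no shared shift of some tame cortex libraries and changed no gene of low mean count, so these rates may not hold here.

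The members and lists were chosen with earlier results of these data known. The named genes are the 4 members, the gene most like each by mean within-group Pearson r among genes of at least 1 CPM on average, and the first gene outside the 4 in the forebrain ranking. Cell type markers were listed by symbol and could not be used. Intervals are at 95% and cover differences between libraries; the lowest counts, 1 to 61 per library for ENSCAFG00000013227 in tame cortex, limit its precision most.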

Additional observations from a re-analysis of the deposited data

How the results depend on the processing

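In the cortex, scaling, filtering and unrounded counts kept 1 of the 4 genes past the threshold (0.0945% of all genes called lower in the main fit). The number was 2 with DESeq2 (0.763% of all genes called lower) and 3 with limma-voom and sample quality weights (0.512%). Without the 5 libraries that stand apart it was 3 (0.125%), and with a surrogate variable 2 (0.252%). The matched libraries gave 2 with those 5 (0.0628%) and 2 without them (0.0469%). With each library left out it was 1 to 2, with 2 in the fit without ID190 (0.0551%). ENSCAFG00000013227 had a log2 fold change of -1.24 with DESeq2 (adjusted p = 0.0324), -1.33 with limma-voom (0.0103), -1.50 without the 5 libraries, -1.85 in the matched libraries and -1.98 in those without the 5, and -1.58 to -1.12 with 1 library left out. ENSCAFG00000015743 was at -0.41 with limma-voom (adjusted p = 0.00244), -0.42 with the surrogate variable and -0.45 without the 5 libraries. Limma-voom gave ENSCAFG00000015141 -0.12 (95% interval -0.27 to 0.02, adjusted p = 0.578). Two-sided permutation of the line labels, with p-values not adjusted over genes, gave ENSCAFG00000007746 1e-05, the smallest the shuffles can give, ENSCAFG00000015141 (difference of mean log2 CPM -0.29) 0.00162 and ENSCAFG00000013227 (-1.49) 0.00057. ENSCAFG00000015743 (-0.17) had a permutation p of 0.220. By the same test (10000 shuffles), 26.7% of all genes were lower in tame with a p under 0.05.

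Between tissues 2 genes passed, 1 with size factors, and 1 to 2 with each library left out. In the main fit, 33.8% of 12695 genes were called higher in forebrain and 30.2% lower, so such calls are common. ENSCAFG00000015141 was at 0.12 with size factors, 0.060 with limma-voom (adjusted p = 0.289) and 0.12 to 0.16 with each library left out. ENSCAFG00000015743 changed sign, to 0.071 with limma-voom (adjusted p = 0.213) and 0.12 without the 5 libraries and ID483 (0.0654), and ENSCAFG00000013227 was at -0.54 with limma-voom (0.0440). Upper-quartile scaling moved the median of all genes from 0.04 to 0.12 and changed no call. The causes were not tested. A replicate block over 20 pairs of libraries sharing the last identifier digits gave 0.84, -0.08, 0.17 and -0.11 for ENSCAFG00000007746, ENSCAFG00000015743, ENSCAFG00000015141 and ENSCAFG00000013227 and the same calls as without the block; the labels do not state that such libraries are paired. The correlation of deviations (-0.266 to 0.324) was over 0.1 in 10 of 11 aggressive and 4 of 9 tame pairs, and 8 aggressive and 2 tame pairs correlated best with their own number. The forebrain fold changes kept their sign in all settings, which carries little weight because these libraries chose the genes. With Spearman or a prior count of 0.5, 0 correlations passed. Of the 4 most alike genes, 2 were the same without tame cortex.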

Other observations

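ENSCAFG00000015743 had levels that went together in aggressive cortex and forebrain libraries sharing the last digits of their identifiers. The labels do not say that such libraries come from one fox. Over 4 correlations of log2 CPM, 1 per gene in 11 aggressive pairs, this gene had Pearson r = 0.748 (permutation p = 0.00887, adjusted p = 0.0355; n = 11) and Spearman rho = 0.791 (permutation p = 0.00551, adjusted p = 0.0220). Without the 2 cortex libraries farthest from the median, r was 0.658. The adjustment covered these 4 correlations only. The share of all genes with such an r was not determined, so it cannot be read as particular to this gene. Over all genes, the correlation of deviations was over 0.1 in 10 of 11 aggressive pairs, and 8 pairs correlated best with their own number. The other 3 genes did not pass the adjustment: for ENSCAFG00000013227, r was 0.592 (permutation p = 0.0539, adjusted p = 0.0903; n = 11) and 0.0518 without the 2 farthest libraries, so that relation rests on those libraries.

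In the tame line the cortex libraries fall into separate clusters of fewer than 6 matched libraries, so no correlation is given. The highest tame cortex levels of ENSCAFG00000015743, in ID191 (142 CPM) and ID187 (132 CPM), stood beside 67.2 CPM in ID491 and 60.4 CPM in ID487. Its next highest, in ID182 (102 CPM), stood beside 84.8 CPM in ID482, the highest tame forebrain level. ENSCAFG00000013227 held these levels in the 9 tame pairs. Libraries ID191 and ID491 held 0.153 and 0.184 CPM (1 and 2 counts), the lowest of the 9 pairs in both tissues. Libraries ID187 and ID487 held 2.23 and 2.49 CPM, the highest of the 9 pairs in both. Tame cortex libraries outside the pairs were higher, ID190 at 4.80 CPM and ID188 at 2.91 CPM. For ENSCAFG00000007746, ID187 was the lowest tame cortex library (1.59 CPM), while ID487 held 9.26 CPM. Over all genes, 2 of 9 tame pairs correlated best with their own number. Forebrain was also above cortex in ID183 and ID483 (0.993 and 2.003 CPM, cortex first) and in ID186 and ID486 (1.01 and 1.20 CPM). Cortex was above forebrain in the other 5 pairs: 0.548 and 0.209 CPM in ID182 and ID482, 1.48 and 1.43 CPM in ID184 and ID484, 0.462 and 0.385 CPM in ID185 and ID485, 0.903 and 0.329 CPM in ID189 and ID489, and 0.601 and 0.439 CPM in ID192 and ID492.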
